A study of Bos taurus with 34 samples.

Results

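A set of 6 genes that serve the filling of the blastocoel were followed through single bovine embryos: the sodium pump beta subunits ATP1B1, ATP1B2 and ATP1B3, the water channels AQP3 and AQP11, and the sodium-proton exchanger SLC9A3. They were chosen by symbol from 18826 genes listed in at least 1 of 2 deposited tables, and all 6 had a row in both tables. The embryos carried a deletion of CSF2RA, the ligand-binding receptor subunit for the cytokine CSF2, or were controls. The series title names CSF2RA, while the sample titles call the same embryos CSF2KO. There were 26 blastocysts, of which 9 were knockouts (7 female, 2 male) and 17 were controls (8 female, 9 male), and 8 morulae, of which 4 were knockouts (3 female, 1 male) and 4 were controls (1 female, 3 male). Control blastocyst 72 is male by its title, which was used, and female by a column name. The labels also give all embryos, controls included, added recombinant Wnt5A and growth in vitro, although the title of the series places the embryos in the uterus. Which of these holds was not settled. The labels name no allele, guide, parent or culture drop, and each embryo was taken as 1 replicate, so p-values measure the spread between these embryos.

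The blastocoel is the fluid cavity of the blastocyst. The trophectoderm, the outer epithelium, pumps sodium across its basolateral membrane with the Na+/K+-ATPase, and water follows through aquaporins while tight junctions hold the fluid in. The pump pairs a catalytic alpha subunit with a glycosylated beta subunit that carries the complex to the membrane. Sodium enters at the outer face partly through sodium-proton exchangers. AQP3 is an aquaglyceroporin, which passes glycerol as well as water, and AQP11 is an unorthodox aquaporin found largely on inner membranes. Each library came from a whole embryo, so fewer cells of a type and less RNA per cell cannot be told apart.

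On the ARS-UCD1.2 assembly of the deposited tables, ATP1B1 (ENSBTAG00000002688) lies on chromosome 16 from 36759212 to 36784818, and its end overlaps NME7, listed from 36784549 to 37029908. ATP1B2 (ENSBTAG00000013680) lies on chromosome 19 from 27364091 to 27369121. ATP1B3 (ENSBTAG00000014140) lies on chromosome 1 from 127050091 to 127086255. AQP3 (ENSBTAG00000008493) lies on chromosome 8 from 75194687 to 75200704. AQP11 (ENSBTAG00000019928) lies on chromosome 29 from 18381661 to 18393534. SLC9A3 (ENSBTAG00000004629) lies on chromosome 20 from 71607452 to 71645487. No other listed gene overlaps these last 5.

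Values are RPKM, reads per kilobase scaled to the library size, where the kilobases are the genomic span of the gene with its introns. The unit is therefore low for genes with long introns. Libraries held 44879 to 17598170 reads in blastocysts and 43679 to 1526852 in morulae, with a median of 878069 in control and 254758 in knockout blastocysts and of 314121.5 and 87893 in control and knockout morulae. Depth thus moved with genotype, and fits with depth as a covariate and, in blastocysts, with libraries of at least 100000 reads alone are given where they bear on a result. In all 4 libraries stand apart from the rest. Control blastocyst 12 had 2791 genes and 35.8% mitochondrial reads, and the trophectoderm markers KRT18, CDX2 and GATA3, the pluripotency marker POU5F1 and the claudin CLDN6 were at 0. KRT8 (86.3 RPKM) and the cadherin CDH1 (1.15 RPKM) were below the other blastocysts there, and the trophectoderm factor GATA2, at 140.6 RPKM, was within their range of 43.2 to 180 RPKM. Outside control 12 and knockout 57, KRT18 ran from 1724 to 4234 RPKM in the other 24 blastocysts. Knockout blastocyst 57 was the shallowest blastocyst, with 44879 reads. CDX2 was at 0 there, and KRT18 (1433 RPKM), KRT8 (694 RPKM), CLDN6 (425 RPKM) and GATA2 (26.6 RPKM) were below those 24 blastocysts. POU5F1, GATA3 and CDH1 were within their range. In knockout morula 21 a single gene, NPAT, took 36.2% of reads, CDX2, GATA3 and POU5F1 were at 0, and KRT18 was 56.4 RPKM where 6 other morulae had 699 to 2216 RPKM. GATA2 was 123 RPKM there, above those morulae at 40.8 to 74.2 RPKM, and CDH1 was 6.31 against 6.94 to 12.9 RPKM. Knockout morula 49 had 43679 reads, the fewest of all. KRT18 (493 RPKM), KRT8 (335 RPKM), CLDN6 (360 RPKM), CDH1 (6.81 RPKM) and GATA2 (36.2 RPKM) were below the same 6 morulae there. CDX2, GATA3 and POU5F1 were within their range. The labels of the 4 libraries that stand apart were kept, and results that rest on them are given with and without them.

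**Figure D1:**
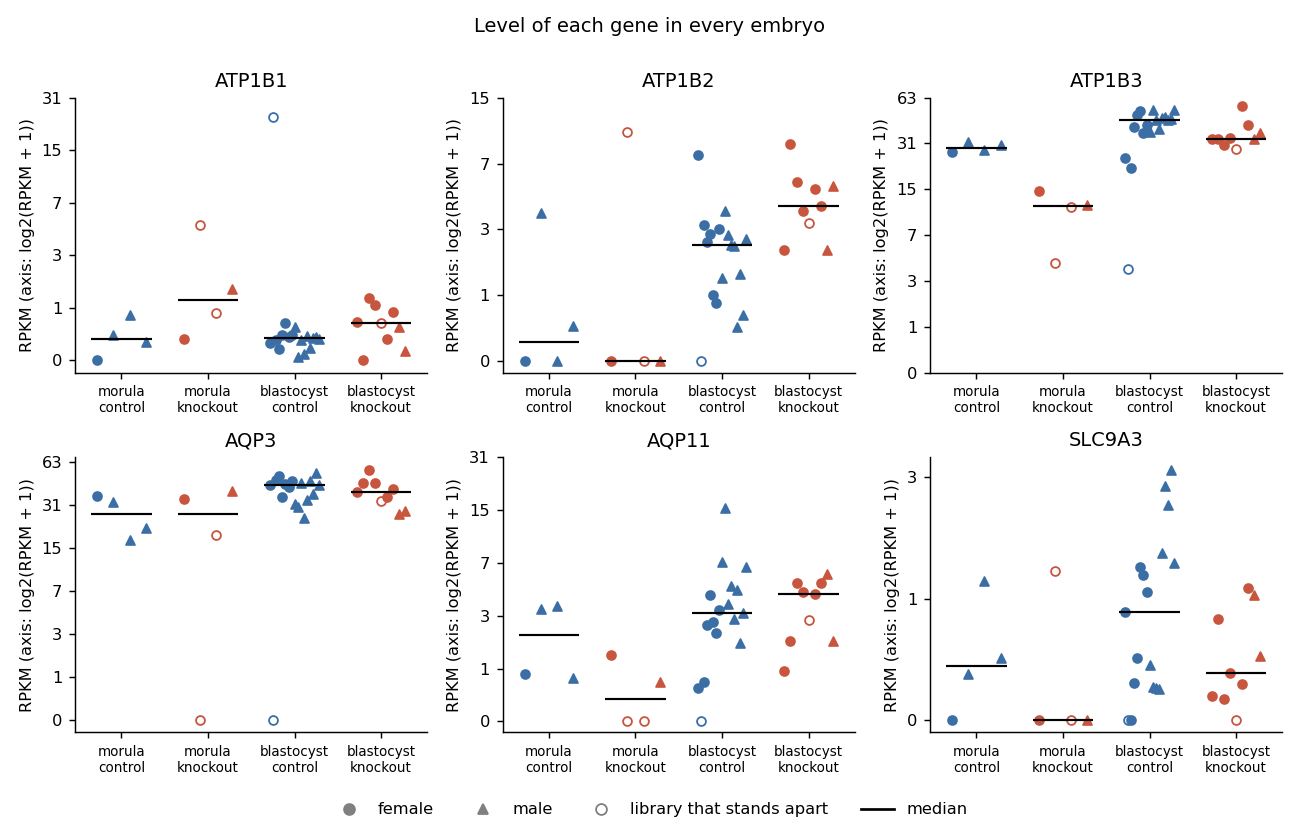
Level of each gene in every embryo, in RPKM on an axis spaced as log2(RPKM + 1), by stage and genotype. Circles are females, triangles males, open circles the 4 libraries that stand apart, and lines medians. ATP1B3 in knockout morulae, at 4.23 to 14.6 RPKM, lies below the control morulae at 27.0 to 31.5 RPKM, and every other gene overlaps between genotypes at both stages.

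ATP1B3 was the beta subunit with nearly all the reads. It was the member with the smallest spread relative to its mean in control morulae (coefficient of variation 6.99%) and the only one whose genotypes did not overlap there. Control morulae 39, 41, 54 and 73 had 31.5, 27.97, 30.2 and 27.0 RPKM of ATP1B3. Knockout morulae 1, 5, 21 and 49 had 11.5, 14.6, 4.23 and 11.2 RPKM. All 4 knockouts lay below all 4 controls, with a mean of 10.4 ± 4.39 RPKM (SD, n = 4) against 29.2 ± 2.04 RPKM (SD, n = 4). The values stood on 95 to 2111 reads in controls and 6 to 64 in knockouts. Of the 5021 genes tested in morulae, 7.91% also had every knockout below every control and 0.558% the opposite, a pattern that 397 genes had, ATP1B3 included.

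An exact two-sided permutation test of the ATP1B3 means over the 8 morulae, which ignored sex, gave p = 0.0286, the smallest that 4 against 4 allows. Any gene with no overlap between genotypes gets this p, so it adds nothing to the gap. In the fit over all genes (limma-trend on log2(RPKM + 1) with sex as a term) the change, knockout minus control, was −1.39 ± 0.68 (SE), with an unadjusted p of 0.0672 and an adjusted p of 0.767, so it did not pass. The median change over all genes in that fit was −0.34. The share of all genes with such a gap was computed for 4 against 4 only. The ATP1B3 gap remained without knockout morulae 21 and 49. Without them the change was −1.12 ± 0.33 with a median over all genes of −0.06, the remaining knockouts averaged 13.1 ± 2.17 RPKM (SD, n = 2), and the exact permutation p of 0.0667 was the smallest that this size allows. With depth as a covariate the change was −1.38 ± 0.96 (unadjusted p = 0.185).

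In blastocysts ATP1B3 overlapped widely between genotypes. The 17 controls had a lowest value of 3.79 RPKM in control 12, a median of 44.4 and a highest of 52.5. The 9 knockouts ran from 28.4 to 55.3 RPKM with a median of 33.4, and 8 of 9 were below the control median. The exception was female knockout 58, at 55.3 RPKM. Means were 39.6 ± 12.7 RPKM (SD, n = 17) in controls and 36.1 ± 8.05 RPKM (SD, n = 9) in knockouts. The fitted change was 0.14 ± 0.32 (adjusted p = 0.994), and without control 12 and knockout 57 it turned to −0.09 ± 0.16. From low to high the group means ran knockout morulae, control morulae, knockout blastocysts and control blastocysts. The last pair did not differ beyond its spread, and the tables of the stages were normalized separately, so the step between stages was not tested.

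ATP1B2, the beta subunit first known from glia, was the member with the smallest p between blastocyst genotypes. Controls had a lowest value of 0 in control 12, a median of 2.41 RPKM and a highest of 7.71 RPKM in control 11. Knockouts had a lowest of 2.21, a median of 4.13 and a highest of 8.83 RPKM, and 7 of 9 lay above the control median. The groups overlapped over most of their range. Means were 4.51 ± 2.04 RPKM (SD, n = 9) in knockouts and 2.30 ± 1.78 RPKM (SD, n = 17) in controls.

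The change in ATP1B2 was 0.79 ± 0.30 (SE) on the log2 scale, with an unadjusted p of 0.0124, which ranked 22 of 6283 genes, and an adjusted p of 0.994. It did not pass over all genes. Of the 6283 genes, 2.75% had an unadjusted p under 0.05 (1.8% higher, 0.955% lower in knockouts) and 0% an adjusted one, and 1 of the 5 members that met the filter, ATP1B2, was among the former. A permutation of genotype within sex on RPKM gave p = 0.0152 for the difference in means of 2.21 RPKM, and p = 0.0237 without control 12 and knockout 57. Leaving out each embryo in turn gave changes from 0.63 to 0.94, depth as a covariate gave 0.73 ± 0.32, and libraries of at least 100000 reads gave 0.82 ± 0.31. Among females alone the change was 0.84 ± 0.41 (unadjusted p = 0.0547). In the authors' deposited table it was 0.99 with an FDR of 0.670.

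These ATP1B2 values stood on few reads. The 9 knockouts held 82 reads of ATP1B2 in all, 1 to 24 each, and the 17 controls held 346, of which 217 were in control 37, the deepest library. In morulae the gene was barely seen. Control morulae 39, 41, 54 and 73 had 3.76, 0, 0.453 and 0 RPKM, and knockout morulae 1, 5, 21 and 49 had 0, 0, 10.1 and 0 RPKM. The 10.1 RPKM of knockout 21 was 2 reads. A count of 0 reads allows up to 3 reads, which would be 4.78, 4.92 and 13.4 RPKM in knockouts 1, 5 and 49, above the highest control value, so a difference in morulae was not detectable at this depth (change 0.11 ± 1.11, adjusted p = 0.974).

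ATP1B1, the beta subunit of most epithelia, was low in all but 1 library. Control blastocyst 12 had 23.8 RPKM of ATP1B1 on 592 reads. The other 16 controls ran from 0.0507 to 0.628 RPKM with a mean of 0.318 ± 0.150 (SD, n = 16), and the knockouts from 0 to 1.28 with a mean of 0.618 ± 0.421 (SD, n = 9). That library, where ATP1B2, AQP3, AQP11 and SLC9A3 were at 0 and ATP1B3 at its lowest, decided the direction for ATP1B1. The fitted change over all blastocysts was −0.15 ± 0.36, and without control 12 it was 0.21 ± 0.12 (unadjusted p = 0.0868).

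The same reversal showed in the means of ATP1B1. Over all embryos the knockout mean was below the control mean (permutation within sex p = 0.982), and without control 12 and knockout 57 it was 0.297 RPKM above it (p = 0.0436). In the authors' deposited table the blastocyst change was −1.42 with a p-value of 0.0414 and an FDR of 0.597. The overlapping gene NME7 was also high in control 12, with 100 of its 163 blastocyst reads and 0.420 RPKM where the highest of the others was 0.0296. How reads in the overlap were assigned is not known here, and the part of this overlap in the ATP1B1 value was not tested.

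In morulae ATP1B1 was counted on very few reads. Control morulae 39, 41, 54 and 73 had 0.400, 0.826, 0.267 and 0 RPKM. Knockout morulae 1, 5, 21 and 49 had 1.57, 0.322, 4.97 and 0.879 RPKM, on 5, 1, 5 and 1 reads. Of the knockouts 3 were above the highest control and knockout 5 lay among the controls. The change was 1.05 ± 0.58 (adjusted p = 0.689, exact permutation p = 0.114) and 0.64 ± 0.26 without knockouts 21 and 49. The authors' deposited table gives 2.22 with an FDR of 0.731.

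**Figure D2:**
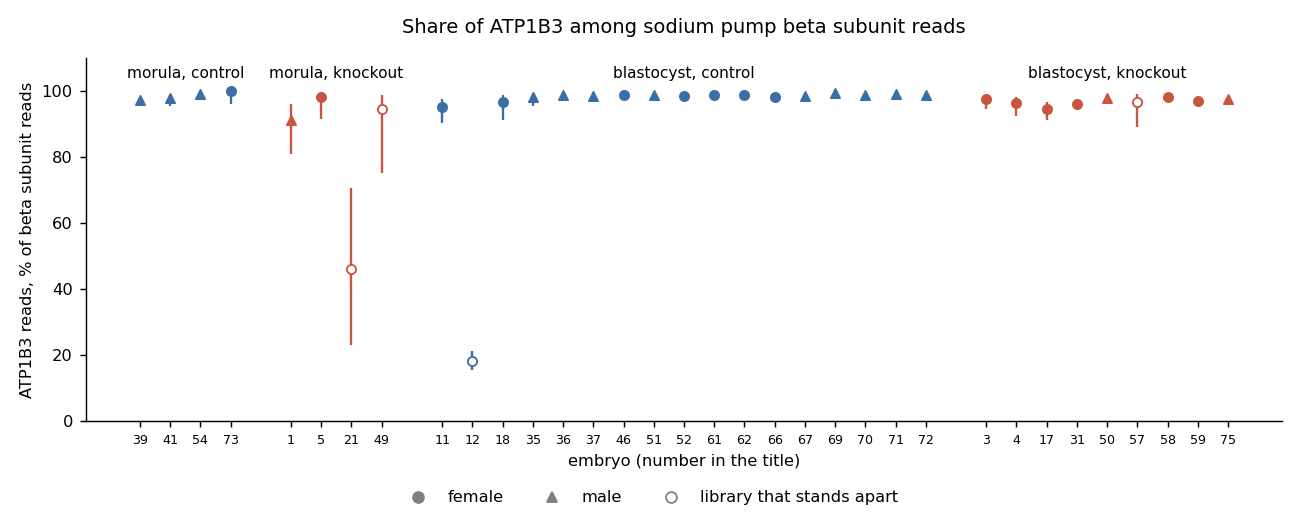
Reads of ATP1B3 as a percentage of all reads of ATP1B1, ATP1B2 and ATP1B3 in each embryo, with 95% Wilson intervals that cover counting error only. The share is above 90% in 32 embryos, and falls to 46.2% in knockout morula 21 and 18.3% in control blastocyst 12.

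Within an embryo the share of beta subunit reads does not depend on library scaling, though it counts reads and not reads per length. Control blastocysts gave a median of 98.8% for ATP1B3, with 95.2% to 99.6% outside control 12, and knockout blastocysts 94.7% to 98.3% with a median of 97.2%. Control morulae had 97.5% to 100%. Knockout morulae 1, 5 and 49 had 91.2%, 98.5% and 94.7%, with Wilson 95% intervals that reach from 75.4% to 99.1% in knockout 49. So ATP1B3 held most of the beta subunit reads in both genotypes, and the exceptions were the libraries 12 and 21. Knockout 21 had 13 beta subunit reads, 5 of ATP1B1, 2 of ATP1B2 and 6 of ATP1B3.

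AQP3 was as high per kilobase of genomic span as ATP1B3, and its genotypes overlapped widely. Control blastocysts had a lowest value of 0 in control 12, a median of 42.7 RPKM and a highest of 52.04, and knockouts ran from 26.7 to 55.2 with a median of 38.3. Knockout 17 was the highest and the male knockouts 50 and 75, at 26.7 and 28.0 RPKM, the lowest. Means were 38.1 ± 12.3 RPKM (SD, n = 17) in controls and 38.4 ± 8.95 RPKM (SD, n = 9) in knockouts. The change was 0.29 ± 0.48 (adjusted p = 0.994), and −0.16 ± 0.14 without control 12 and knockout 57, so no direction held.

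Morulae already carried AQP3 at this order of level. Control morulae 39, 41, 54 and 73 had 32.6, 16.99, 20.8 and 35.9 RPKM, and knockout morulae 1, 5, 21 and 49 had 38.7, 34.3, 0 and 18.7 RPKM. The genotypes overlapped, and the knockout at 0 was the library where NPAT took 36.2% of the reads. Its 0 reads allow up to 12.7 RPKM. The change was −0.66 ± 1.28 (adjusted p = 0.963), and 0.42 ± 0.42 without knockouts 21 and 49. AQP3 and ATP1B3, the 2 members that met the filter in morulae, did not move together in every knockout: in knockouts 1 and 5 AQP3 was above 3 of 4 controls or above all 4, while ATP1B3 was under every control. The log2 ratio of AQP3 to ATP1B3 reads was −0.83 and −1.34 in these knockouts, −3.70 in knockout 21, −1.75 in knockout 49 and −3.28 to −2.15 in the 4 controls. Over all 4 knockouts the ratio thus lay on both sides of the controls.

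AQP11 varied more between embryos than AQP3. Control blastocysts had a lowest value of 0 in control 12, a median of 3.13 RPKM and a highest of 15.5 RPKM in control 36, where 142 reads were counted. Knockouts ran from 0.947 to 5.88 RPKM with a median of 4.32, inside the control range. Means were 3.899 ± 3.56 RPKM (SD, n = 17) in controls and 3.60 ± 1.76 RPKM (SD, n = 9) in knockouts, with a change of 0.35 ± 0.33 (adjusted p = 0.994). In morulae the controls 39, 41, 54 and 73 had 3.36, 3.56, 0.768 and 0.867 RPKM and the knockouts 1, 5, 21 and 49 had 0.676, 1.39, 0 and 0 RPKM. Knockouts held 3 reads in all, and the change of −0.72 ± 0.55 did not pass (adjusted p = 0.854).

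AQP11 was the member with the smallest p between male and female blastocysts. The 11 male blastocysts ran from 1.80 to 15.5 RPKM with a median of 4.62, and the 15 females from 0 to 5.16 with a median of 2.71. The sexes overlapped, with 4 males above every female, among them control 72 (6.54 RPKM), which a column name gives as female. With that embryo taken as female, 2 males in place of 4 would lie above every female, and the change given next would be 0.68 ± 0.33. Male minus female was 0.84 ± 0.31 on the log2 scale (unadjusted p = 0.0126, adjusted p = 0.433), and 0.68 to 1.05 when each embryo was left out. Of all genes tested 10.9% had an unadjusted p under 0.05, 9.96% higher in males and 0.939% lower, and 1 of the 5 members that met the filter, AQP11, was among them. The median change of all genes was 0.26 in the same direction. Among controls alone the change was 1.12 ± 0.37. With quality weights it was 0.39 ± 0.22 (unadjusted p = 0.0845).

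**Figure D3:**
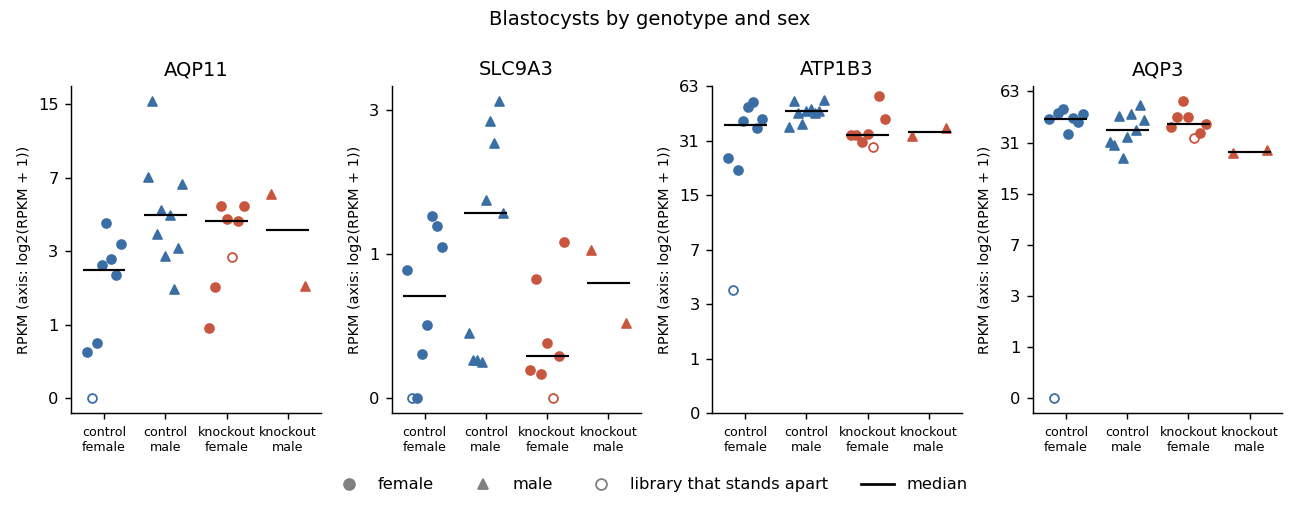
AQP11, SLC9A3, ATP1B3 and AQP3 in each blastocyst by genotype and sex, in RPKM on an axis spaced as log2(RPKM + 1), with lines at medians. Male controls have the highest AQP11 (15.5 RPKM) and SLC9A3 (3.18 RPKM), and the male knockouts are 2 embryos.

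The other members gave no call by sex. SLC9A3 had a change of 0.40 ± 0.23 (adjusted p = 0.442), ATP1B3 one of 0.49 ± 0.31 (adjusted p = 0.459), ATP1B2 one of −0.16 ± 0.28 and ATP1B1, which failed the filter, one of −0.53 ± 0.35. AQP3 turned with the libraries. It had 0.18 ± 0.46 over all blastocysts and −0.33 ± 0.13 without control 12 and knockout 57 (unadjusted p = 0.0168, adjusted p = 0.391), when 13 females averaged 43.4 ± 5.55 RPKM (SD) and 11 males 36.1 ± 9.02 RPKM. No member's knockout effect differed between the sexes in an interaction test (adjusted p of 0.991 and above), where only 2 knockouts were male. Sex was not tested in morulae, where 3 of 4 knockouts were female and 3 of 4 controls male.

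SLC9A3, the epithelial exchanger of apical membranes, had the lowest mean RPKM of the members that met the filter in blastocysts, over a genomic span of 38035 bases. It was not the lowest in reads. SLC9A3 had 806 reads in control and 95 in knockout blastocysts, and ATP1B2, with a span of 5030 bases, had 346 and 82. For SLC9A3 controls had a lowest value of 0 in controls 12 and 18, a median of 0.850 RPKM and a highest of 3.18. Knockouts ran from 0 to 1.12 with a median of 0.307, and 7 of 9 lay below the control median, all within the control range. Means were 1.04 ± 1.001 RPKM (SD, n = 17) in controls and 0.465 ± 0.415 RPKM (SD, n = 9) in knockouts. The difference did not pass (change −0.25 ± 0.24, adjusted p = 0.994; permutation within sex p = 0.121). In morulae controls 39, 41, 54 and 73 had 0.298, 1.205, 0.420 and 0 RPKM, and the knockouts were at 0 but for knockout 21, with 1.34 RPKM on 2 reads. The change there was −0.13 ± 0.44 (adjusted p = 0.928).

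SLC9A3 differed among controls between 2 ranges of the embryo number in the title, without following the number over all embryos. The 6 controls numbered 35 to 52 had 0.191 to 0.424 RPKM, and the 8 numbered 61 to 72 had 1.07 to 3.18 RPKM, with no overlap. Controls 11 and 18 had 0.850 and 0 RPKM, on both sides of the first range, and knockouts 50 and 75, at 1.04 and 0.440 RPKM, did not keep to these levels. ATP1B2 went the other way with much overlap, with a median of 2.64 RPKM in the first set and 1.26 RPKM in the second, where the 9 knockouts, numbered 3 to 75, had 4.13. Total reads overlapped between these sets, at 156832 to 17598170 and 299327 to 2220883. The share of reads from a single microRNA locus, bta-mir-2887-1, was 0.458% to 3.88% in the first set and 3.70% to 5.08% in the second, against 1.85% to 8.63% in knockouts. The labels do not say what the number stands for. The sets were seen in these data and were not compared by a test, and the part of the microRNA share was not tested. How many other genes lack overlap between these sets is not given here, so the gap cannot be called particular to SLC9A3.

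**Figure D4:**
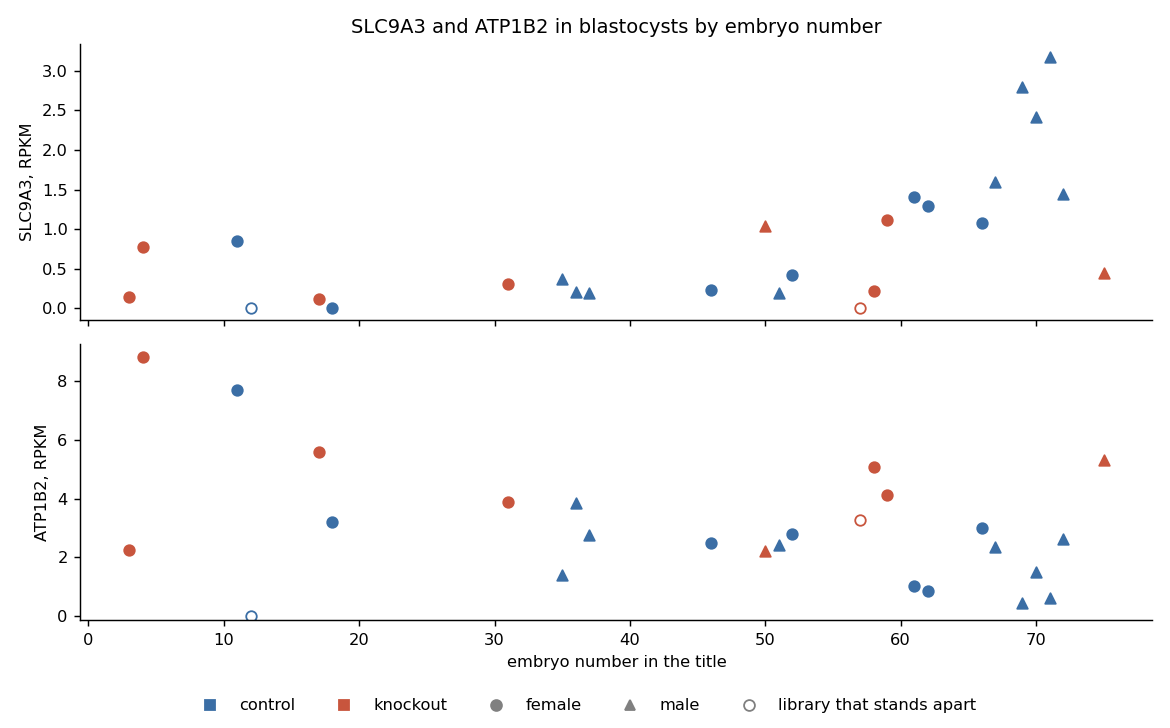
SLC9A3 (top) and ATP1B2 (bottom) in RPKM in each blastocyst against the embryo number in its title, by genotype (colour) and sex (shape). SLC9A3 of the 8 controls numbered 61 to 72 lies at 1.07 to 3.18 RPKM, above the 6 controls numbered 35 to 52 at 0.191 to 0.424 RPKM. These sets were seen in the same values and were not compared by a test, and the share of other genes with such a gap is not given.

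**Figure D5:**
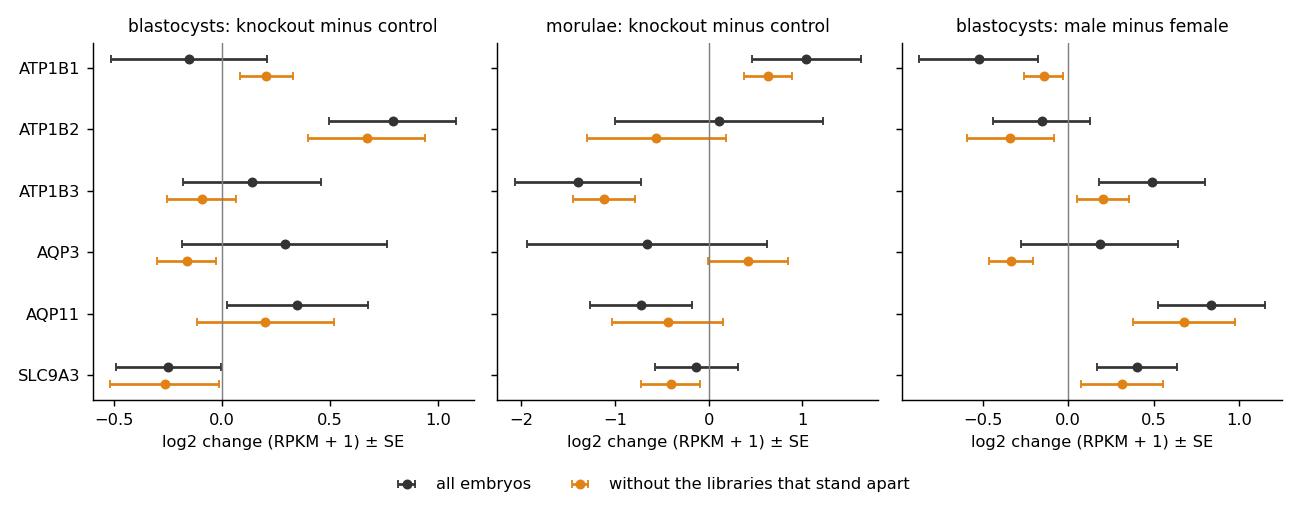
Change of each member on the log2(RPKM + 1) scale with its SE in the 3 comparisons, over all embryos and without the 4 libraries that stand apart. ATP1B2 in blastocysts (0.79 and 0.67) and ATP1B3 in morulae (−1.39 and −1.12) keep their sign in both fits, and the blastocyst genotype change of ATP1B1, ATP1B3 and AQP3 turns.

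Across the 6 members, 0 passed at an adjusted p of 0.05 in any of the 3 comparisons, as did 0 genes of the whole table in each (limma-trend). At an unadjusted p under 0.05 there was 1 member in blastocysts by genotype, 0 in morulae and 1 by sex, where 6.87% of genes were in morulae (0.896% higher and 5.97% lower in knockouts). Between blastocyst genotypes 4 members had a change above 0 and 2 below, with a median of 0.21 beside 0.08 for all genes. In morulae 2 were above and 4 below, with a median of −0.39 beside −0.34. By sex 4 were above and 2 below, with a median of 0.29 beside 0.26. ATP1B1 failed the filter in blastocysts, and only ATP1B3 and AQP3 met it in morulae; the others come from the fit without a filter.

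Relations between members over the 26 blastocysts were computed for the 10 pairs of the 5 that met the filter, on log2(RPKM + 1). ATP1B3 and AQP11 were the pair with the smallest p for Pearson's r, which was 0.67 (permutation p = 0.00012, adjusted over 10 pairs 0.0012). Spearman's rho of this pair was 0.47 (permutation p = 0.0169, adjusted 0.0845). Without control 12 and knockout 57 its r was 0.57 (adjusted 0.0243) and its rho 0.38 (adjusted 0.224). Without controls 12 and 18, the embryos farthest from the ATP1B3 median, r was 0.46, and it was 0.70 in 16 controls without control 12 and 0.20 in 9 knockouts. The r of 0.83 between ATP1B3 and AQP3 rested on control 12: rho was 0.04 (adjusted p = 0.835), and r was −0.01 without controls 12 and 18. ATP1B3 and SLC9A3 had the largest rho, 0.51 (permutation p = 0.00852, adjusted 0.0845), with r of 0.41 (p = 0.0315, adjusted 0.0788) and an r of 0.33 without controls 12 and 18. Without control 12 and knockout 57 that pair had rho of 0.39 (adjusted 0.224) and r of 0.37 (adjusted 0.199). ATP1B2 and SLC9A3 had r of −0.35 (permutation p = 0.0815, adjusted 0.136) and rho of −0.32 (adjusted 0.359) over all embryos. Without control 12 and knockout 57 these were −0.55 (adjusted 0.0243) and −0.48 (adjusted 0.194), with −0.60 in 16 controls and 0.08 in 9 knockouts, and the controls fall into the sets by number given above. Depth and library make-up are shared by all genes of an embryo.

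Among 5727 genes with a symbol, the patterns most like each member were ranked by Spearman's rho over the 26 blastocysts, as a description. For ATP1B3 these were KRT8, a keratin of the trophectoderm (0.82), PPP1R7 (0.79) and TMED10 (0.79). KRT8 was 827 to 2241 RPKM in the 24 blastocysts other than control 12 (86.3) and knockout 57 (694), and it stayed first without those libraries (0.78). For AQP3 they were SLC12A9 (0.72), PRAF2 (0.72) and FZD7 (0.71), and for AQP11 MCRIP2 (0.88), URAD (0.81) and NFKBIB (0.80). For SLC9A3 they were ACTB, cytoplasmic actin (0.84), TSPAN33 (0.84) and ACSL6 (0.84), and for ATP1B2 ERCC1 (0.72), TPX2 (0.71) and CD48 (0.68). No member was among the 3 closest genes of another. For ATP1B3 the members ranked SLC9A3 567th, AQP11 824th, AQP3 4340th and ATP1B2 5292nd.

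The other genes of ion and water transport were taken from a list of 46, of which 31 were in the blastocyst and 26 in the morula table. Of these 8 met the filter in blastocysts and 7 in morulae, and 0 of them passed, adjusted or not. The change was above 0 for 4 and below for 4 in blastocysts (median −0.028, beside 0.08 for all genes), and above for 3 and below for 4 in morulae (median −0.29, beside −0.34).

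FXYD4, of a family of small pump regulators, averaged 129 ± 86.9 RPKM in knockout and 187 ± 116.0 RPKM (SD) in control blastocysts (change −0.45 ± 0.45). SLC9A3R1, a scaffold protein that binds SLC9A3, averaged 135 ± 39.9 and 155 ± 51.2 RPKM in blastocysts. In morulae SLC9A3R1 ran from 0 to 77.9 RPKM in knockouts and from 136 to 213 RPKM in controls, and the chloride-bicarbonate exchanger SLC4A2 from 3.15 to 4.29 and from 6.36 to 10.5 RPKM. Neither overlapped between genotypes, like 7.91% of the table, and neither passed (changes −2.41 ± 1.45 and −0.92 ± 0.61, adjusted p = 0.853 for both). The knockout at 0 for SLC9A3R1 was knockout 21. In blastocysts SLC4A2 changed by 0.11 ± 0.33, SCNN1A, a subunit of the epithelial sodium channel, by −0.12 ± 0.24, PRKCZ, an atypical protein kinase C, by 0.07 ± 0.18, and SLC26A6, an anion exchanger, by 0.07 ± 0.22. CA4, a membrane carbonic anhydrase, had means of 0.747 ± 0.964 RPKM (SD) among knockouts and 3.07 ± 3.51 RPKM among controls, with a change of −0.86 ± 0.48 (unadjusted p = 0.0827).

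Marker genes were read beside these levels. The 8 trophectoderm markers summed to 2742 to 3405 RPKM in control morulae and 192 to 1470 RPKM in knockout morulae, with 1162 and 1470 RPKM in those other than 21 and 49 and no marker at 0 in both of these. The 6 epithelium markers summed to 814 to 1276 RPKM in control and 120 to 875 RPKM in knockout morulae. A few genes made up most of these sums. In the 6 morulae other than 21 and 49, KRT18 and KRT8 had medians of 1642 and 936 RPKM. CDX2, GATA3 and GATA2 reached at most 19.9, 13.0 and 74.2 RPKM there, and CLDN6 was 540 to 802 RPKM. The sum of the 5 inner cell mass markers in the table leaned the other way with overlap, at 69.96 to 160 RPKM in control and 86.3 to 197 RPKM in knockout morulae. Its medians were 95.1 and 162.5 RPKM without knockouts 21 and 49, where GATA4 was at 0 in both knockouts left. POU5F1 alone was 52.6 to 191 RPKM in the 6 morulae other than 21 and 49. The first 2 sums moved with the lower ATP1B3 of knockout morulae, and the part of any of the 3 in it was not tested. In blastocysts without control 12 and knockout 57 the trophectoderm sum was 2904 to 6780 RPKM in controls and 2968 to 4469 RPKM in knockouts. Markers of cumulus cells, oviduct or uterine epithelium and fibroblasts summed to at most 7.65, 5.33 and 2.39 RPKM in any embryo. Those of leukocytes reached 79.2 RPKM in a control morula. Those of erythrocytes reached 86.2 RPKM in control blastocyst 12 and at most 37.7 RPKM in the other control blastocysts.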

How the data were processed

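Polyadenylated RNA of 34 single embryos was measured. Per the labels, RNA was extracted with a column kit and made into stranded libraries. Per the submitters' processing notes, FastQC, featureCounts and edgeR were used on ARS-UCD1.2, with no versions given; the aligner is not given in the sources used here. The authors deposited RPKM for 18442 genes in blastocysts and 14878 in morulae; the morula table names no unit and RPKM was inferred. The authors' tables also hold a log2 fold change with p-value and FDR. Within 0.01 reads, 100% of deposited RPKM values were whole reads over the genomic span, which recovered reads and depths.

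Tests across genes were made on log2(RPKM + 1) by limma-trend (limma version 3.58.1 under R 4.3.3) with sex, or genotype, as a term, robust moderation, and Benjamini-Hochberg adjustment over all genes at 0.05. Genes needed at least 1 RPKM in 9 blastocysts or 4 morulae. RPKM is not a count, so the main tests were not count tests, and voom on recovered reads was run as an alternative setting. A fold change on this scale understates changes of low genes. Each member's RPKM was also permuted (scipy 1.17.1, 100000 resamples in blastocysts, exact in morulae, two-sided). Intervals (95%) and the limit of 3 reads for a 0 cover counting error only. The scripts were tested on simulated data. Besides the members, named genes were the pathway genes with the highest blastocyst mean, at most 8, and the 3 closest by rho to each member; some genes of the pathway list are not reported here and were left out of its counts; overlapping, marker and library genes were named after their values were seen. The members and lists were chosen with earlier results of these data known. Genomic positions are from the deposited tables, and no sequence was used here.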

Additional observations from a re-analysis of the deposited data

Results flagged for a closer look

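Of 18 groups of 4 to 10 embryos checked for 1 embryo far from the rest, 4 had such an embryo. The nominal rate of about 1 in 20 groups by chance was not checked for groups with values at 0, such as those of ATP1B2 and SLC9A3 in morulae. The number of flags was therefore not read against that rate. ATP1B2 in control morula 39 was 3.76 RPKM on 35 reads, and the next control had 0.453. ATP1B2 in knockout morula 21 was 10.1 RPKM and SLC9A3 in the same embryo 1.34 RPKM, each on 2 reads where the other 3 knockouts had none. ATP1B3 in knockout blastocyst 58 was 55.3 RPKM on 468 reads, above the other 8 knockouts at 28.4 to 41.3 RPKM.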

How the results depend on the processing

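No member passed at an adjusted p under 0.05 in any setting run. ATP1B2 between blastocyst genotypes kept its sign in all 12 settings (0.67 to 1.37, unadjusted p under 0.05 in 11), as did ATP1B3 between morulae in 9 (−1.51 to −1.12) and AQP11 by sex in 12 (0.39 to 1.45). Genes called between blastocyst genotypes were 0 throughout. Between morulae they were 44 with a pseudocount of 0.1, 33 without sex, 3 without the libraries that stand apart and 1 with voom. By sex they were 16 with quantile scaling, 127 with quality weights, 28 without the libraries that stand apart and 0 to 1 leaving out each embryo (1 without control 12).

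Signs turned as follows; the cause was not tested. Between blastocyst genotypes ATP1B1 was 0.21 with quality weights, 0.21 without the libraries that stand apart, 0.060 with voom and 0.0095 without sex, and −0.23 to 0.21 leaving out each embryo. ATP1B3 was −0.043 with quantile scaling, −0.23 with quality weights, −0.094 without those libraries and −0.013 without sex, and −0.12 to 0.23 leaving out each embryo. AQP3 was −0.25 with quality weights and −0.16 without those libraries, and −0.19 to 0.41 leaving out each embryo. SLC9A3 was 0.017 with voom. Each turn on leaving out 1 blastocyst came from control 12. Between morulae ATP1B2 was −0.18 with a pseudocount of 0.1, −0.40 with quality weights, −0.56 without those libraries and −0.93 to 1.16 leaving out each embryo. SLC9A3 was 0.15 with quantile scaling and −0.67 to 0.41 leaving out each embryo, and AQP3 was 0.42 without those libraries and −2.06 to 0.75 leaving out each embryo. By sex AQP3 was −0.17 with quantile scaling, −0.30 with quality weights, −0.33 without those libraries and −0.32 to 0.29 leaving out each embryo. The mean difference in RPKM without those libraries was 0.297 for ATP1B1 and −1.41 for AQP3 in blastocysts, and −1.05 for ATP1B2 and 9.89 for AQP3 in morulae; these were chosen after seeing the data. The edgeR test on recovered reads was not run, and morulae over 100000 reads leave 1 knockout, a female, against 3 male controls, where genotype and sex cannot be told apart and no fit was made. No paired analysis was possible because embryo numbers are not shared between groups. Depth limits ATP1B1, ATP1B2, AQP11 and SLC9A3 in morulae, which rest on 0 to 5 reads in each knockout.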
